A study of Mus musculus with 25 samples.

Results

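The genes described here encode proteins that colonocytes, the absorptive cells of the large intestine, use to move sodium, water, acid and bicarbonate across the gut wall. They are the 3 subunits of the epithelial sodium channel ENaC (Scnn1a, Scnn1b and Scnn1g), the water channels Aqp4 and Aqp8, the proton-potassium pump subunit Atp12a, the carbonic anhydrases Car1, Car2 and Car4, and the chloride and bicarbonate channel Cftr. They were chosen by name for their function, with earlier results of these data known. Each name matched 1 of the 49452 gene identifiers in the deposited table, which gave 10 of 10 genes. The table holds RNA sequencing of distal colon from 25 mice on the C57BL/6 background at 6 weeks of age, 5 mice for each of 5 genotypes, in FPKM, that is sequenced fragments relative to transcript length and to the size of the library. The control genotype, Nemofl/fl, has a floxed Ikbkg gene, which encodes NEMO, the regulatory subunit of the kinase complex that activates NF-kB. NEMOIEC-KO mice lack NEMO in intestinal epithelial cells, and all 3 double mutants carry this deletion as well. The double mutants are labelled NEMOIEC-KO Il12b-/- (p40), NEMOIEC-KO Il12a-/- (p35) and NEMOIEC-KO Il23a-/- (p19), after the cytokine subunit each is said to lack. Neither the mutant alleles nor the driver of the epithelial deletion are described in the labels. The study asked how each cytokine deficiency changes the colon of NEMOIEC-KO mice.

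In the distal colon, sodium enters surface colonocytes through ENaC, which is assembled from alpha, beta and gamma subunits, and is pumped out at the base of the cell by the sodium-potassium pump. Aldosterone raises ENaC activity in this segment, in the colon mainly through the beta and gamma subunits. Water follows the salt, partly through aquaporins: Aqp8 is a channel of surface colonocytes, and Aqp4 lies in the basolateral membrane. Carbonic anhydrases interconvert carbon dioxide and bicarbonate, which feeds the exchangers that take up sodium and chloride. Cftr carries chloride and bicarbonate outward, mostly in crypt cells.

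Scnn1g and Scnn1b are neighbours on mouse chromosome 7, on the same strand and 96.6 kb apart, and their levels moved together within genotypes (Pearson r = 0.84 over 25 libraries, described further below). Aqp8 and Car4 also moved together (r = 0.94), although they lie on different chromosomes. The 250 bases before the RefSeq start of each of these 4 genes are shown for this reason. For Aqp8 and Car4 the RefSeq start differs by some bases from the gene coordinates given below, which are from another annotation. The sequences come from RefSeq (GRCm38.p6), on the plus strand, which is the coding strand of all 4 genes, at chr7:121734229-121734478 for Scnn1g, chr7:121864788-121865037 for Scnn1b, chr7:123462044-123462293 for Aqp8 and chr11:84957504-84957753 for Car4. Capitals mark a match to 1 of the motifs searched, and all other bases are in lower case.
Scnn1g: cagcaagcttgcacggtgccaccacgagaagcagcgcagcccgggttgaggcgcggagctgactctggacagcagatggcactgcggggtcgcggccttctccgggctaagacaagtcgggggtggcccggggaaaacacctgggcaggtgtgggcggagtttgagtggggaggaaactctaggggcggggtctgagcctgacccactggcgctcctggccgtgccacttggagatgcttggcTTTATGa
Scnn1b: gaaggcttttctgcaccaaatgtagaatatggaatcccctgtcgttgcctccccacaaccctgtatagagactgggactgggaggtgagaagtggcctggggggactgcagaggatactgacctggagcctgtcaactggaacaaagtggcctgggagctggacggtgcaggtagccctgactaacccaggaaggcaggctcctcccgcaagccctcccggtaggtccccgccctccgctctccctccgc
Aqp8: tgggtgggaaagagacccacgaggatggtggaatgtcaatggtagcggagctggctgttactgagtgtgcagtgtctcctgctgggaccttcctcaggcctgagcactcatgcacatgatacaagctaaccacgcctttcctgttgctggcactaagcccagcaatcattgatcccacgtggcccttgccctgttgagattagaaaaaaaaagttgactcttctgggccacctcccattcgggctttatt
Car4: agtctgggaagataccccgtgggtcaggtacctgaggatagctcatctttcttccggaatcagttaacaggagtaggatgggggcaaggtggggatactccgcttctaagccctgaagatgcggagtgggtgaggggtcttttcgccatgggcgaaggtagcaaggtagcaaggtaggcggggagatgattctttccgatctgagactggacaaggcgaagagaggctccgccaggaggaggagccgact

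The RefSeq promoter table held 5 of the 10 genes (these 4 and Cftr). Their windows were searched on both strands for 6 motifs. The glucocorticoid and mineralocorticoid response half-site was searched as TGTTCT, the interferon-gamma activated sequence as TTCNNNGAA and the first 9 bases of an NF-kB site as GGGACTTTC. A CDX site was searched as TTTATG, an HNF4 site as CAAAGTCCA and the TATA box as TATAAA. The CDX letters share bases with no other match and were found once, in Scnn1g, at 7 to 2 bases before the start. No other motif was found in the 5 windows. Among all 32851 windows of the same length, TGTTCT was present in 16.1%, TTCNNNGAA in 7.02%, GGGACTTTC in 0.289%, TTTATG in 10.8%, CAAAGTCCA in 0.384% and TATAAA in 12.4%. No searched motif was found in both genes of either pair, which says only that these letters are not in these windows.

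The FPKM of a library summed to between 653776 and 744280, and absolute depth is unknown. Relative depth, read from the smallest steps of the values, lay between 0.697 and 1.16. Ikbkg lay between 8.27 and 11.0 FPKM in the 5 Nemofl/fl libraries and between 3.10 and 5.85 FPKM in the 5 of NEMOIEC-KO, and its mean was 3.34 to 3.98 FPKM in each double mutant. The mean of Il12b was 0.994 ± 0.223 FPKM in mice labelled Il12b-/-, against 0.171 ± 0.0799 FPKM in NEMOIEC-KO (SD, n = 5). That of Il12a was 1.20 ± 0.586 FPKM in mice labelled Il12a-/-, against 0.421 ± 0.313, and that of Il23a 0.214 ± 0.0427 FPKM in mice labelled Il23a-/-, against 0.311 ± 0.308. The RNAs of Il12b and Il12a thus went against the labels, which do not say which part of each gene was altered. Il23a ranged from 0.150 to 0.262 FPKM in the mice labelled Il23a-/-, within its range of 0.0827 to 0.805 FPKM in NEMOIEC-KO. At these low levels its RNA does not bear out that label either. Libraries of the double mutants are named below by their label only, as Il12b-labelled and likewise for the other two. Over all genes tested, Il12b-labelled replicate 2 and Il12a-labelled replicate 1 stood apart from the rest of their genotype, and results are given with and without them where they differ. All Nemofl/fl and 3 NEMOIEC-KO libraries (replicates 3 to 5) carry the library code K002000081, and the other 2 NEMOIEC-KO and all but 1 of the double mutant libraries carry K002000079. No double mutant shares a code with Nemofl/fl, so code and genotype cannot be told apart in those comparisons. Female mice, told by sex-linked RNA, numbered 0 of 5 among Nemofl/fl, 1 of 5 among NEMOIEC-KO, and 2, 2 and 4 of 5 among the Il12b-, Il12a- and Il23a-labelled. Markers of epithelium and of the distal end of the gut (Hoxb13 at 274.6 ± 23.3 FPKM in Nemofl/fl) were present in every library.

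Loss of epithelial NEMO came with lower RNA of 5 of the 10 genes (Scnn1a, Aqp8, Car1, Car2 and Cftr) and higher RNA of 1 (Aqp4). This was tested with limma over all 19266 genes that passed a filter on low values, at an adjusted p below 0.05, a filter that all 10 genes passed. Of all genes tested, 32.2% were called in this comparison, 20.3% as lower and 11.9% as higher. The median log2 fold change of the 10 genes was -0.52, against -0.08 over all genes. In Il12b-labelled against NEMOIEC-KO libraries 3 of the 10 were higher (Car1, Car2 and Cftr) and 1 lower (Scnn1g), where 14% of all genes were called as higher, 5.94% as lower and 19.9% in all. In Il12a-labelled against NEMOIEC-KO libraries 1 of the 10 was called, Scnn1g, as lower, where 4% of all genes were called as lower and 9.61% in all. In Il23a-labelled against NEMOIEC-KO libraries limma called 0 of the 10 and 0.083% of all genes, and 1 of the 10, Atp12a, had an unadjusted p below 0.05. These comparisons share the NEMOIEC-KO libraries, so their values are not independent. Of all genes called, 36.9% were higher in NEMOIEC-KO than in Nemofl/fl, and 51.4% after scaling by the median of ratios. The same share was 70.2% and 42.8% in Il12b-labelled, and 58.3% and 34.2% in Il12a-labelled against NEMOIEC-KO libraries. That scaling moved the median log2 fold change of all genes in Il12b-labelled libraries from 0.11 to 0.004, and it reversed the direction of none of the called changes among the 10 genes.

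**Figure D1:**
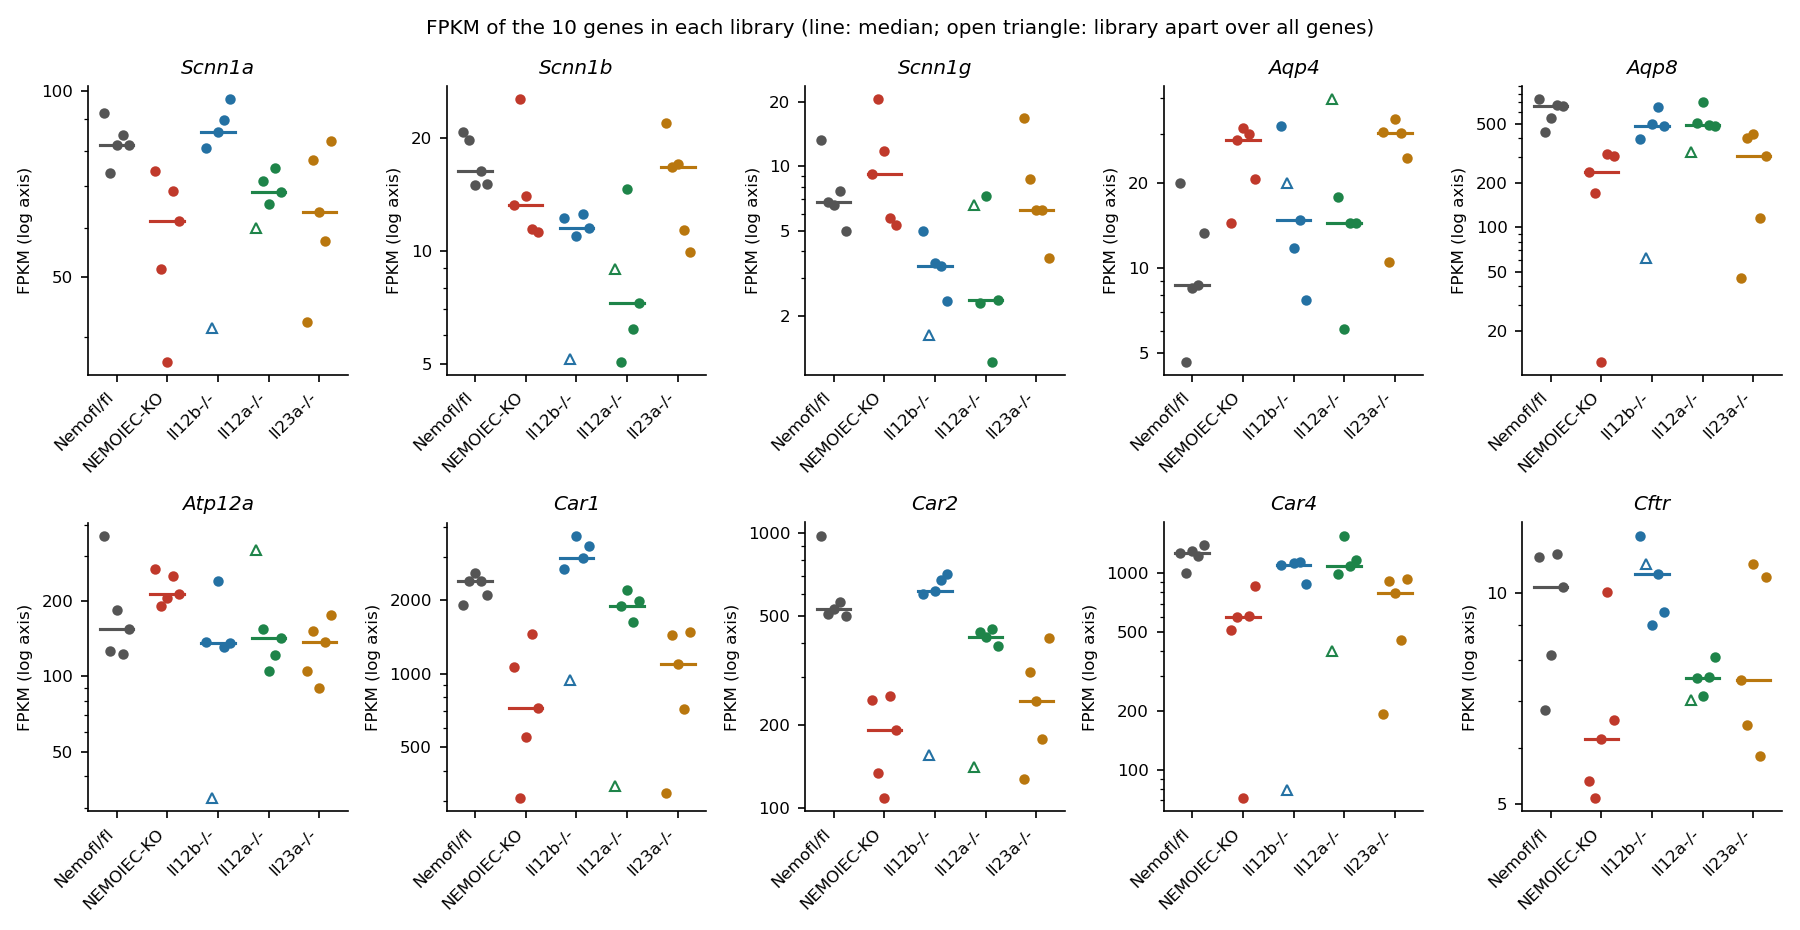
FPKM on log axes (y) of each of the 10 genes in each of the 25 libraries, by genotype (x), with 1 point per library, a line at the median of the 5 libraries and open triangles for the 2 libraries that stood apart over all genes. All 5 NEMOIEC-KO points lie below all 5 Nemofl/fl points for Aqp8, Car1, Car2 and Car4, and all Il12b-labelled points lie below all NEMOIEC-KO points for Scnn1g. Of all genes, 13.5% and 4.1% were apart in these ways.

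The alpha subunit of ENaC, Scnn1a (ENSMUSG00000030340, chr6:125320659-125344943, GRCm38), was the most abundant of the 3 subunits in all 5 genotypes. In replicates 1 to 5 it stood at 91.8, 73.5, 81.6, 84.7 and 81.7 FPKM in Nemofl/fl and at 74.2, 51.6, 36.4, 68.8 and 61.5 FPKM in NEMOIEC-KO. The groups overlapped, with 4 of 5 NEMOIEC-KO libraries below every Nemofl/fl library. The log2 fold change was -0.53 (SE 0.21), which corresponds to 1.45-fold lower, at a limma adjusted p of 0.0499. Leaving out any 1 of these libraries other than NEMOIEC-KO replicate 1 or 4 raised it above the threshold, to at most 0.173. Scnn1a stood at 80.7, 41.2, 85.7, 89.6 and 96.9 FPKM in the Il12b-labelled libraries and at 60.0, 71.5, 65.6, 75.0 and 68.6 in the Il12a-labelled. Both ranges overlapped that of NEMOIEC-KO, and replicate 2, the library that stood apart, was the lowest of the Il12b-labelled. Against NEMOIEC-KO the log2 fold change was 0.41 in Il12b-labelled libraries (limma adjusted p = 0.158), and without replicate 2 it was 0.63 (adjusted p = 0.0124). In the Il23a-labelled libraries it stood at 42.3, 77.4, 63.6, 57.1 and 82.9 FPKM, within the combined range of Nemofl/fl and NEMOIEC-KO libraries.

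The gamma subunit, Scnn1g (ENSMUSG00000000216, chr7:121734479-121768475), was lower in 2 of the double mutants than in NEMOIEC-KO. It stood at 13.3, 6.82, 6.56, 7.64 and 5.00 FPKM in Nemofl/fl and at 9.17, 20.6, 11.7, 5.70 and 5.34 FPKM in NEMOIEC-KO replicates 1 to 5. These groups overlapped (log2 fold change 0.30, SE 0.43, limma adjusted p = 0.613), and NEMOIEC-KO replicate 2 was the highest of all 25 libraries. In the Il12b-labelled libraries Scnn1g stood at 5.00, 1.63, 3.55, 3.42 and 2.35 FPKM. All 5 lay below all 5 NEMOIEC-KO libraries, which held for 4.1% of all genes, and the log2 fold change was -1.48 (SE 0.43, limma adjusted p = 0.0174), or 2.80-fold lower. In the Il12a-labelled libraries it stood at 6.63, 2.29, 7.27, 1.22 and 2.36 FPKM. There 3 of 5 libraries lay below every NEMOIEC-KO library, and the log2 fold change was -1.38 (SE 0.43, limma adjusted p = 0.0433). In the Il23a-labelled libraries it stood at 16.8, 8.72, 6.23, 6.25 and 3.74 FPKM, a range that overlapped every other genotype (log2 fold change -0.31 against NEMOIEC-KO, 95% interval -1.19 to 0.57). The fall in Il12b-labelled libraries missed the threshold without NEMOIEC-KO replicate 2 (log2 fold change -1.21, adjusted p = 0.0608). The fall in Il12a-labelled libraries missed it without NEMOIEC-KO replicate 1, 2 or 3 or Il12a-labelled replicate 2, 4 or 5 (adjusted p up to 0.125). Within the library code K002000079 (5 against 2 libraries) the log2 fold changes were -2.03 (adjusted p = 0.0577) and -1.92 (adjusted p = 0.148).

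The beta subunit, Scnn1b (ENSMUSG00000030873, chr7:121865038-121918514), stood at 20.8, 19.7, 15.0, 16.4 and 15.1 FPKM in Nemofl/fl and at 13.3, 25.4, 14.1, 11.4 and 11.2 FPKM in NEMOIEC-KO. The 2 groups overlapped through NEMOIEC-KO replicate 2, and the other 4 NEMOIEC-KO libraries lay below all Nemofl/fl libraries. In the Il12b-labelled libraries it stood at 12.3, 5.16, 11.0, 12.5 and 11.6 FPKM, in the Il12a-labelled at 8.95, 5.08, 14.7, 6.21 and 7.28 and in the Il23a-labelled at 21.9, 16.8, 17.0, 11.4 and 9.93. Every Il12b-labelled and every Il12a-labelled library lay below every Nemofl/fl library, as did 1.59% and 3.52% of all genes in those comparisons. Against Nemofl/fl the change passed the test in Il12a-labelled libraries (log2 fold change -1.08, limma adjusted p = 0.0473), where 1 of the 10 genes was called beside 0.571% of all genes as lower and 1.34% in all. It kept the call in 1 of 10 fits that left out 1 library, the one without Il12a-labelled replicate 3 (adjusted p up to 0.141 in the others). The call was also lost with sex (-0.93, adjusted p = 0.133) or the epithelial score (-0.87, 0.258) as a covariate, with median-of-ratios scaling (0.0577) and with no filter (0.0816). With library code as a covariate the log2 fold change was -1.65 (limma adjusted p = 0.245). Only NEMOIEC-KO holds both codes of this comparison, so that fit cannot separate code from genotype. Against NEMOIEC-KO the log2 fold change in Il12a-labelled libraries was -0.83 (SE 0.27, limma adjusted p = 0.0547), and adjusted p was 0.0338 without Il12a-labelled replicate 1 and 0.0317 without replicate 3.

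Since the 3 subunits share a channel, their relative RNA levels were compared within each library. As a percent of Scnn1a FPKM, Scnn1g amounted to 9.38 ± 3.10% in Nemofl/fl, with 20.3 ± 14.8% in NEMOIEC-KO, 4.10 ± 1.35% in Il12b-labelled, 6.08 ± 4.60% in Il12a-labelled and 15.2 ± 13.9% in Il23a-labelled libraries (SD, n = 5). The large spread in NEMOIEC-KO came from replicates 2 and 3, at 40.0% and 32.2%, beside 8.29% to 12.4% in the other 3. Scnn1b amounted to 21.1 ± 3.62% of Scnn1a in Nemofl/fl and 13.3 ± 1.30% in Il12b-labelled libraries, with 28.1 ± 14.9% in NEMOIEC-KO, 12.6 ± 6.18% in Il12a-labelled and 26.4 ± 15.1% in Il23a-labelled libraries. All 5 Il12b-labelled libraries, from 11.9% to 15.2%, lay below all 5 Nemofl/fl libraries, from 18.4% to 26.8%. These ratios are descriptions and were not tested.

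**Figure D2:**
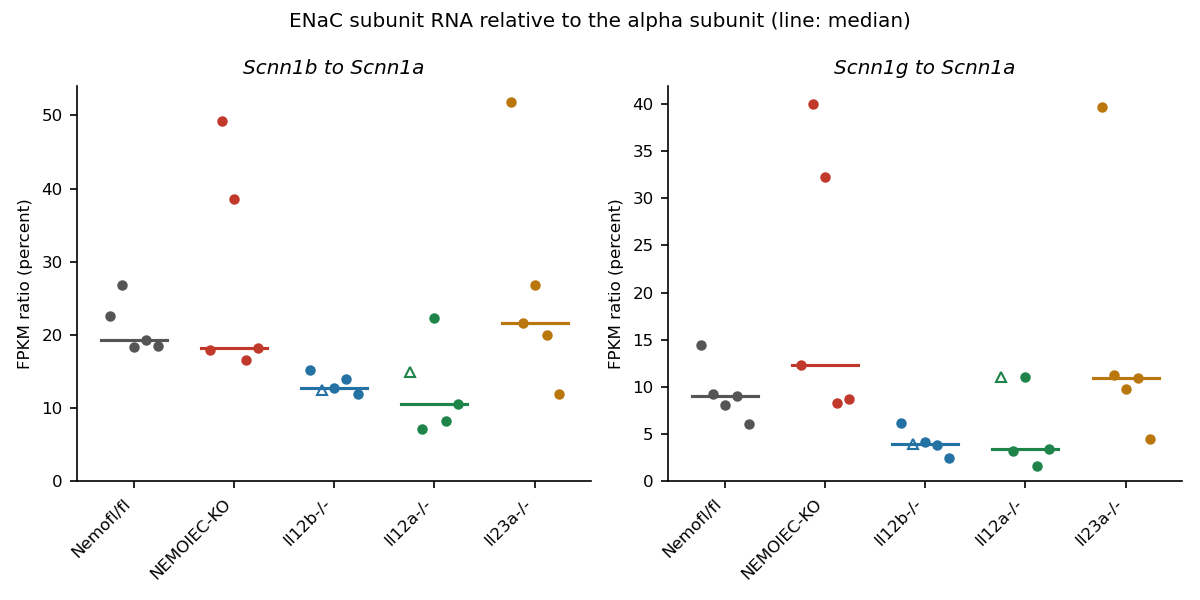
Scnn1b (left) and Scnn1g (right) FPKM as a percent of Scnn1a FPKM in the same library (y), by genotype (x), with 1 point per library, a line at the median and open triangles for the 2 libraries that stood apart over all genes. NEMOIEC-KO and Il23a-labelled libraries spread most, up to 40.0% and 39.7% for Scnn1g, and the Il12b-labelled libraries lie between 2.42% and 6.19%.

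Of the water channels, Aqp8 was lower and Aqp4 higher in NEMOIEC-KO than in Nemofl/fl. Aqp8 (ENSMUSG00000030762, chr7:123462291-123468004) stood at 736, 442, 545, 672 and 662 FPKM in Nemofl/fl and at 236, 169.8, 12.4, 312 and 305 FPKM in NEMOIEC-KO. The groups did not overlap, which held in this direction for 13.5% of all genes, and NEMOIEC-KO replicate 3 was far below the other 4. The log2 fold change was -2.13 (SE 0.74, limma adjusted p = 0.0323), or 4.37-fold lower, and the ratio of mean FPKM was 2.95. The call was lost without Nemofl/fl replicate 1, 3, 4 or 5 or NEMOIEC-KO replicate 3 (adjusted p up to 0.12), and without the last the log2 fold change was -1.27. Aqp8 stood at 395, 61.7, 503, 650.5 and 484 FPKM in the Il12b-labelled libraries, in the Il12a-labelled at 322, 506, 699.5, 492 and 482 and in the Il23a-labelled at 45.3, 400.4, 429.8, 116 and 303. All 5 Il12a-labelled libraries lay above all 5 NEMOIEC-KO libraries, as did 3.18% of all genes, yet the log2 fold change of 1.82 (SE 0.74) had a limma adjusted p of 0.11. All 5 Il23a-labelled libraries lay below all 5 Nemofl/fl libraries, as did 7.45% of all genes.

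Aqp4 (ENSMUSG00000024411) stood at 20.0, 4.65, 8.53, 8.75 and 13.3 FPKM in Nemofl/fl and at 14.5, 28.5, 31.5, 29.9 and 20.8 FPKM in NEMOIEC-KO. All but NEMOIEC-KO replicate 1 lay above every Nemofl/fl library. The log2 fold change was 1.24 (SE 0.43, limma adjusted p = 0.0321), or 2.36-fold higher, and it missed the threshold without Nemofl/fl or NEMOIEC-KO replicate 2, 3 or 4 (adjusted p up to 0.0985). The Il12b-labelled libraries stood at 31.9, 20.1, 11.8, 14.8 and 7.70 FPKM, the Il12a-labelled at 39.8, 17.8, 6.09, 14.5 and 14.5 and the Il23a-labelled at 30.5, 10.5, 33.9, 30.0 and 24.6. The ranges of the first 2 overlapped those of both Nemofl/fl and NEMOIEC-KO, with log2 fold changes against NEMOIEC-KO of -0.63 (95% interval -1.52 to 0.27) and -0.61 (-1.50 to 0.29). In Il23a-labelled libraries 4 of 5 lay above every Nemofl/fl library (log2 fold change against Nemofl/fl 1.24, limma adjusted p = 0.0352), a call lost without Nemofl/fl replicate 2, 3 or 4 or Il23a-labelled replicate 1, 3 or 4 (adjusted p up to 0.102). It was also lost with a covariate: the log2 fold change was 0.64 (adjusted p = 0.388) with sex, 0.23 (0.759) with the smooth muscle score, 0.30 (0.786) with the epithelial score and 1.63 (0.183) with library code. The fit with code cannot separate code from genotype here, since Il23a-labelled and Nemofl/fl libraries share no code. Aqp4 amounted to 1.73 ± 0.658% of Aqp8 FPKM in Nemofl/fl (SD, n = 5), with a highest library at 2.72%, and to between 6.12% and 254.9% in the 5 NEMOIEC-KO libraries.

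Atp12a (ENSMUSG00000022229, chr14:56365068-56388550), the catalytic subunit of the colonic proton-potassium pump, takes up potassium in exchange for protons. It stood at 363, 127, 183, 123 and 155 FPKM in Nemofl/fl and at 268, 191, 205, 252 and 212 FPKM in NEMOIEC-KO. Nemofl/fl replicate 1 was the highest of all and the groups overlapped (log2 fold change 0.36, SE 0.39, limma adjusted p = 0.493). It stood at 137, 32.8, 239, 131 and 136 FPKM in Il12b-labelled libraries, at 318, 155, 105, 121 and 142 in Il12a-labelled and at 105, 152, 90.3, 137 and 175 in Il23a-labelled. All 5 Il23a-labelled libraries lay below all 5 NEMOIEC-KO libraries, as did 0.612% of all genes, although the log2 fold change of -0.80 (SE 0.39) had a limma adjusted p of 0.472. In the Il12b-labelled libraries the log2 fold change was -0.97 (SE 0.39, limma adjusted p = 0.0766). It passed the threshold without Il12b-labelled replicate 3, the highest of them (-1.24, adjusted p = 0.0305).

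The cytosolic carbonic anhydrases Car1 and Car2 were lower in NEMOIEC-KO than in Nemofl/fl and higher in Il12b-labelled than in NEMOIEC-KO libraries. Car1 (ENSMUSG00000027556, chr3:14766216-14808368, minus strand) was the most abundant of the 10, with a median rank of 30 among all genes in Nemofl/fl libraries and of 166 in NEMOIEC-KO. It stood at 1918, 2397, 2588, 2404 and 2096 FPKM in Nemofl/fl and at 1065, 308, 550.3, 1457 and 723 FPKM in NEMOIEC-KO. The groups did not overlap, which held in this direction for 13.5% of all genes. The log2 fold change was -1.66 (SE 0.50, limma adjusted p = 0.0151), or 3.16-fold lower. In the Il12b-labelled libraries Car1 stood at 2679, 942, 3682, 2988 and 3345 FPKM. All but replicate 2 of these lay above all 10 libraries of Nemofl/fl and NEMOIEC-KO, and the log2 fold change against NEMOIEC-KO was 1.79 (SE 0.50, limma adjusted p = 0.0149). With library code as a covariate the rise was 2.11 (adjusted p = 0.0561). Without NEMOIEC-KO replicate 2 the fall in NEMOIEC-KO (adjusted p = 0.0521) and the rise in Il12b-labelled libraries (adjusted p = 0.0524) narrowly missed the threshold. In the Il12a-labelled libraries it stood at 347, 1899, 2196, 1629 and 1986 FPKM and in the Il23a-labelled at 324, 1446, 1098, 714 and 1482. In the former, replicate 1 lay between the 2 lowest NEMOIEC-KO libraries and the other 4 above every library of NEMOIEC-KO (a log2 fold change of 0.92, limma adjusted p = 0.22, and 1.42 with adjusted p = 0.0216 without replicate 1).

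Car2 (ENSMUSG00000027562, chr3:14886273-14900770) lies 77.9 kb from Car1, on the other strand. It stood at 978, 509, 531, 559 and 501 FPKM in Nemofl/fl and at 246, 134, 109, 256 and 192 FPKM in NEMOIEC-KO. Every NEMOIEC-KO library lay below every Nemofl/fl library, as did 13.5% of all genes. The log2 fold change was -1.74 (SE 0.40, limma adjusted p = 0.0027), or 3.34-fold lower. This call held in all 10 fits that left out 1 of these libraries (adjusted p up to 0.0116). Car2 stood at 602, 156, 618, 673 and 712 FPKM in the Il12b-labelled libraries, in the Il12a-labelled at 141, 439, 420.1, 446 and 388 and in the Il23a-labelled at 128, 313, 246, 179 and 416. Against NEMOIEC-KO the log2 fold change was 1.46 (SE 0.40, limma adjusted p = 0.0136) in Il12b-labelled libraries, again past the threshold in all 10 fits that left out 1 library (adjusted p up to 0.045), though not with library code as a covariate (1.43, adjusted p = 0.0996). It was 0.93 (limma adjusted p = 0.127) in Il12a-labelled libraries, and 1.25 (adjusted p = 0.0212) without replicate 1. All Il12a-labelled and all Il23a-labelled libraries lay below all Nemofl/fl libraries, as did 3.52% and 7.45% of all genes in those comparisons. The Il23a-labelled libraries were called lower than Nemofl/fl for Car2 (log2 fold change -1.33, limma adjusted p = 0.0184) and Car1 (-1.36, adjusted p = 0.0441). With Aqp4 these were 3 of the 10 genes, beside 29.5% of all genes (12.6% as higher and 17% as lower). The Car2 call was lost without Il23a-labelled replicate 1 or 4 (adjusted p up to 0.0562). The Car1 call was kept without Il23a-labelled replicate 2 or 5 and lost without any other library of the comparison (adjusted p up to 0.138). Both calls were lost with covariates. With the smooth muscle score Car2 was at a log2 fold change of -0.56 (limma adjusted p = 0.427) and Car1 at -0.17 (0.849), and with the epithelial score at -1.01 (0.351) and -1.09 (0.422). With sex they were at -0.95 (0.196) and -1.09 (0.248), and with library code Car2 was at -1.59 (0.15) and Car1 had an adjusted p of 0.473. The fit with code cannot separate code from genotype in this comparison, since its groups share no code.

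Car4 (ENSMUSG00000000805, chr11:84957786-84966044) is anchored at the outer face of the apical membrane. It stood at 1267, 999, 1293, 1227 and 1393 FPKM in Nemofl/fl and at 515, 600.1, 71.5, 604 and 857 FPKM in NEMOIEC-KO. The groups did not overlap, which held in this direction for 13.5% of all genes. However, NEMOIEC-KO replicate 3 lay far below the rest and the log2 fold change of -1.58 (SE 0.67) had a limma adjusted p of 0.073. Car4 stood at 1103, 78.7, 1122, 1147 and 878 FPKM in Il12b-labelled libraries, at 401, 987, 1555, 1085 and 1169 in Il12a-labelled and at 192, 912, 797, 456 and 938 in Il23a-labelled. Replicate 2 of the Il12b-labelled libraries was near the lowest NEMOIEC-KO library, and the other 4 lay above all NEMOIEC-KO libraries. Car1, Car2 and Car4 made up 81.7 ± 3.21% of the summed FPKM of the 10 genes in Nemofl/fl, against 72.7 ± 3.75% in NEMOIEC-KO (SD, n = 5). The 10 genes together held 0.753 ± 0.0598% of a Nemofl/fl library's FPKM and 0.297 ± 0.104% of that of a NEMOIEC-KO library, and 0.708 ± 0.298% in Il12b-labelled, 0.556 ± 0.187% in Il12a-labelled and 0.344 ± 0.157% in Il23a-labelled libraries.

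Cftr (ENSMUSG00000041301, chr6:18170687-18322768) stood at 11.3, 6.81, 8.14, 11.4 and 10.2 FPKM in Nemofl/fl and at 5.38, 5.09, 6.18, 10.0 and 6.59 FPKM in NEMOIEC-KO. The groups overlapped through NEMOIEC-KO replicate 4 and the 2 lowest Nemofl/fl libraries. The log2 fold change was -0.51 (SE 0.17, limma adjusted p = 0.0305), or 1.42-fold lower, and it missed the threshold without Nemofl/fl replicate 1, 4 or 5 or NEMOIEC-KO replicate 1, 2 or 3 (adjusted p up to 0.087). In the Il12b-labelled libraries Cftr stood at 12.1, 11.0, 8.98, 10.6 and 9.39 FPKM. The rise over NEMOIEC-KO (log2 fold change 0.64, SE 0.17, limma adjusted p = 0.0128) was past the threshold in all 10 fits that left out 1 library and in all 14 other alternatives, with adjusted p between 0.00227 and 0.0483. The Il12a-labelled libraries stood at 7.04, 7.55, 7.11, 7.59 and 8.10 FPKM and the Il23a-labelled at 7.50, 6.47, 11.0, 5.85 and 10.5. Every Il12a-labelled library lay below every Il12b-labelled library, as did 1.02% of all genes, with 0 of the 10 genes called between these groups by limma (1 at an unadjusted p below 0.05, and 0.41% of all genes called).

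**Figure D3:**
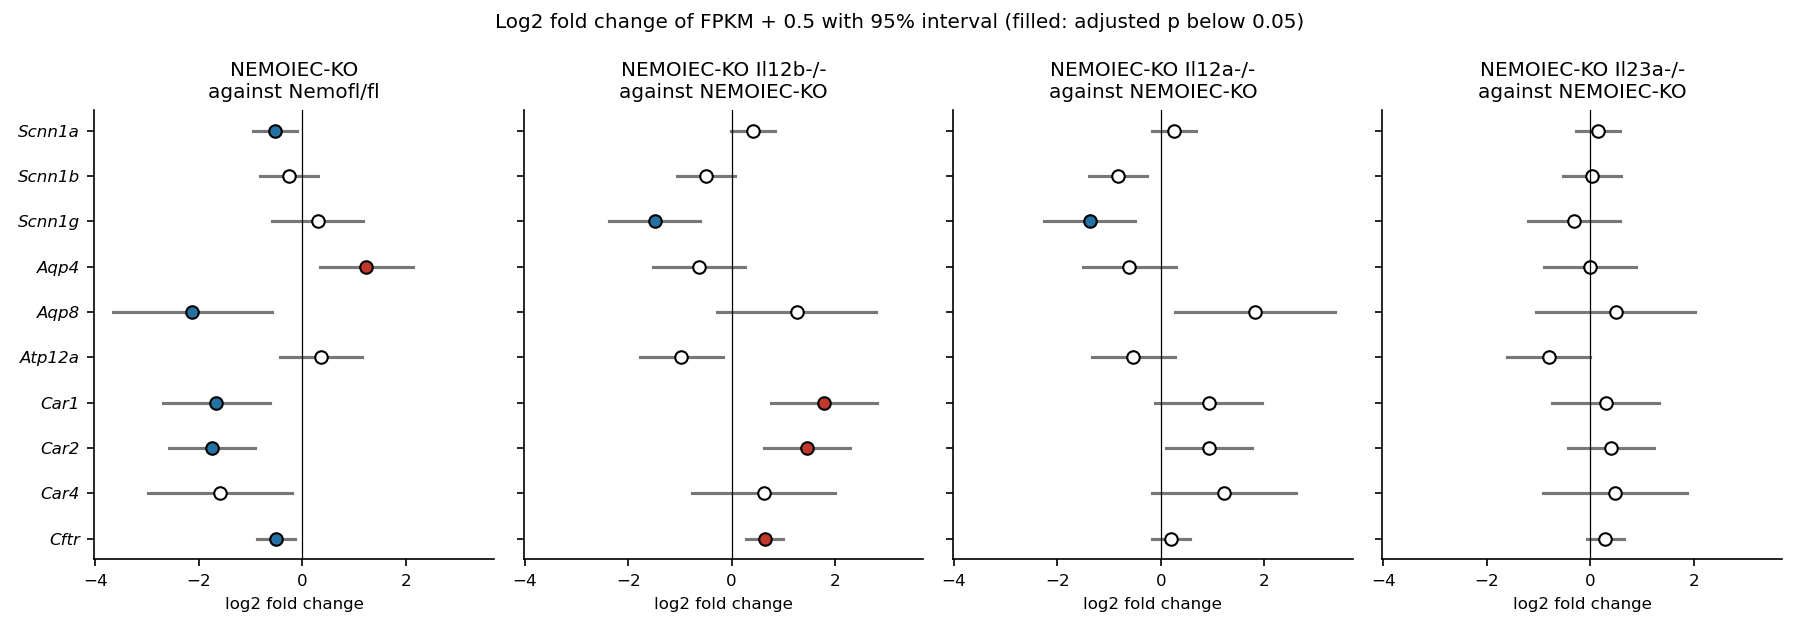
Log2 fold change of FPKM + 0.5 (x) of each of the 10 genes (y) in the 4 main comparisons (panels), with points at the limma estimate, bars for the 95% interval and filled points where adjusted p is below 0.05. Filled points number 6 for NEMOIEC-KO against Nemofl/fl, 4 for Il12b-labelled, 1 for Il12a-labelled and 0 for Il23a-labelled against NEMOIEC-KO, and Scnn1g is the gene filled in both the Il12b-labelled and the Il12a-labelled panel.

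Of the comparisons without NEMOIEC-KO, Il23a-labelled against Nemofl/fl libraries gave 3 of the 10 and Il12a-labelled against Nemofl/fl 1 of the 10, as given above. Il12b-labelled against Nemofl/fl libraries gave 0 by limma (0.369% of all genes called, and 2 of the 10, Scnn1b and Scnn1g, at an unadjusted p below 0.05). Il23a-labelled against Il12b-labelled libraries gave 0 (5.11% of all genes called, 3 of the 10 at an unadjusted p below 0.05), and Il23a-labelled against Il12a-labelled gave 0 (1.16% of all genes called, 2 of the 10 at an unadjusted p below 0.05). The double mutants were thus not shown to differ from each other in these genes. Without the 2 libraries that stood apart, 2 and 3 of the 10 passed in the last 2 comparisons. The share of all genes called under that omission is not given for them. These counts are therefore not read as a result about the 10 genes.

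The same omission, chosen after seeing the data, changed the comparison of Il12a-labelled with NEMOIEC-KO libraries most. Without the 2 libraries, 7 of the 10 genes were called there in place of 1, while the count over all genes rose from 1851 to 5249 of 19266. Car1 (log2 fold change 1.42, limma adjusted p = 0.0101), Car2 (1.25, 0.00353), Car4 (1.53, 0.0336) and Aqp8 (1.97, 0.046) were higher. Scnn1b (-0.87, 0.018), Scnn1g (-1.61, 0.00956) and Atp12a (-0.79, 0.0293) were lower. In Il12b-labelled against NEMOIEC-KO libraries the call of Scnn1a as higher was added, which made 5 of 10. In NEMOIEC-KO against Nemofl/fl that of Car4 as lower was added (adjusted p = 0.0157), which made 7 of 10, since the spread is estimated over all genotypes. Il23a-labelled against NEMOIEC-KO libraries still gave 0. For the comparisons that gained Scnn1a and Car4, the share of all genes called under this omission is not given. Those gains are therefore not read as particular to these genes.

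Within 1 library code the called changes that involve NEMOIEC-KO libraries kept their direction. Calls in double mutants against Nemofl/fl could not be examined in this way, because those groups share no code. For K002000081, with 5 Nemofl/fl against 3 NEMOIEC-KO libraries, the change of Car2 (on the log2 scale -1.76, limma adjusted p = 0.00663), Car1 (-1.44, 0.00972), Scnn1a (-0.61, 0.0451) and Aqp4 (1.40, 0.0352) stayed past the threshold. Scnn1b joined them (-0.48, 0.0349), while Aqp8 (-2.49, 0.0887) and Cftr (-0.32, 0.29) did not pass. For K002000079, with 5 Il12b-labelled against 2 NEMOIEC-KO libraries, Cftr passed (0.92, 0.0158), and Car1 (2.11, 0.119) and Car2 (1.43, 0.154) did not.

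Within genotypes the 10 genes fell into a block, a pair and 3 genes more on their own. After centring log2 values within each genotype, Scnn1a correlated with Car2 (Pearson r = 0.89), Aqp8 (0.89), Car4 (0.88) and Car1 (0.73) over 25 libraries. Aqp8 and Car4 gave the highest of the 45 pairs (0.94), and Car1 and Car2 reached 0.86. Scnn1a did not vary with the other ENaC subunits in this way: r was 0.04 with Scnn1b and -0.23 with Scnn1g. Scnn1b and Scnn1g formed a pair of their own (0.84). Aqp4 ran against Car1 (-0.55, the lowest of the 45), and the highest values of Cftr and Atp12a were 0.43 (with Aqp4) and 0.58 (with Scnn1a). In all, 12 of 45 pairs lay over 0.5 and the median was 0.19. These are descriptions without a test, since the points share libraries, depth and tissue composition, and the 2 libraries that stood apart are among the extreme points.

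**Figure D4:**
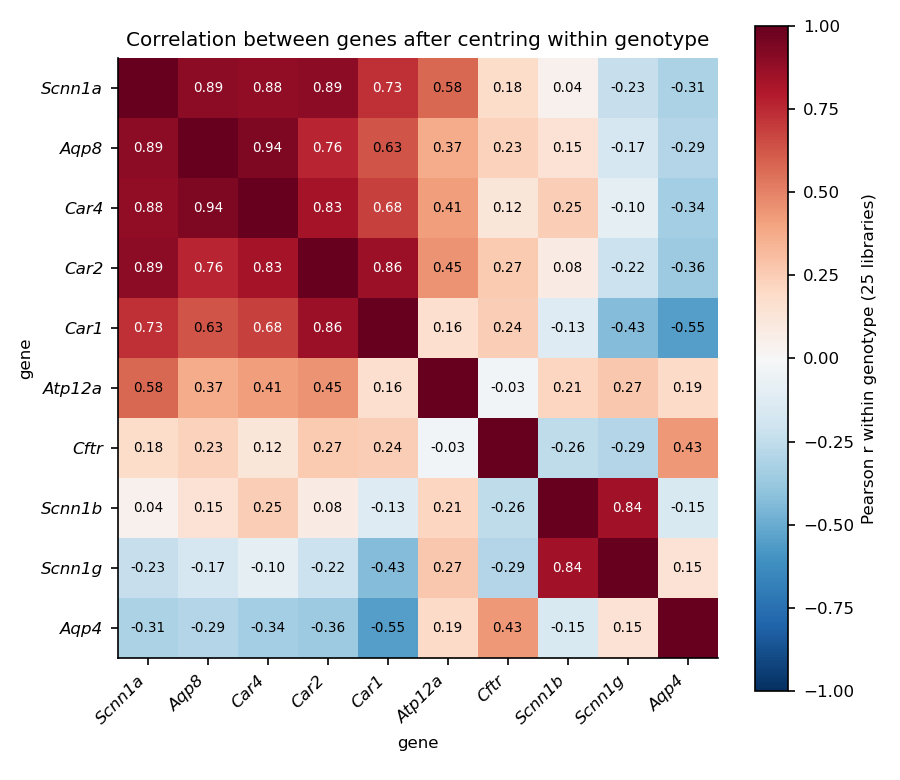
Pearson r (color and number) between each pair of the 10 genes (x and y) over 25 libraries after centring log2(FPKM + 0.5) within genotype. Scnn1a, Aqp8, Car4, Car2 and Car1 form a block with r from 0.63 to 0.94, and Scnn1b with Scnn1g a pair at 0.84.

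**Figure D5:**
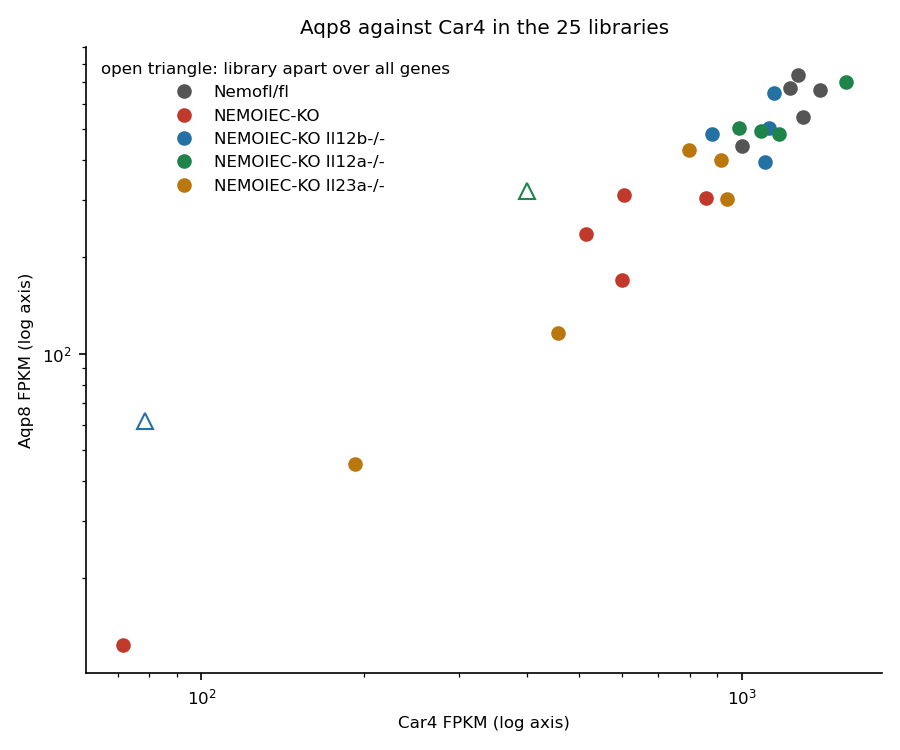
Aqp8 FPKM (y, log axis) against Car4 FPKM (x, log axis), with 1 point per library, colored by genotype, and open triangles for the 2 libraries that stood apart over all genes. NEMOIEC-KO replicate 3 is lowest in both genes, at 71.5 FPKM of Car4 and 12.4 FPKM of Aqp8, and the 5 Nemofl/fl libraries lie at the upper right.

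The genes most alike to each of the 10 in this measure were read from 12607 candidates that averaged at least 1 FPKM. For Scnn1a they were Tgm3 (r = 0.95), Slc26a3 (0.95), the chloride-bicarbonate exchanger of surface colonocytes, and Cyp2d12 (0.94). Cyp2d12 was also among the 3 most alike to Aqp8 (0.94, after Sytl1 and Eno3 at 0.94) and Car4 (0.94, with Aqp8 at 0.94 and Selenbp1 at 0.93). For Car2 they included Mettl7a2 (0.96) and Chpt1 (0.95), and for Car1 they were Gstt1 (0.92), Rnf32 (0.89) and Hist1h2bc (0.89). The gene most alike to Scnn1b was Scnn1g, followed by Fam189a1 (0.66) and Casp14 (0.65), and after Scnn1b the genes most alike to Scnn1g were Alg13 (0.70) and Smg1 (0.65). Aqp4 was most like Slc39a8 (0.89), Ildr1 (0.86) and Fam3b (0.84), Atp12a most like Samd8 (0.81), Cpeb4 (0.81) and Clca4a (0.80), and the genes most like Cftr included Cmtm8 (0.77) and Pctp (0.75).

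Other genes of the same pathways were counted from lists. Of 17 ENaC regulators and sodium pump genes, 3 were lower and 3 higher in NEMOIEC-KO than in Nemofl/fl. This is near the shares over all genes, of which 20.3% were lower and 11.9% higher. Among the lower were Tsc22d3, a corticosteroid-induced activator of ENaC (55.8 to 33.01 FPKM, log2 fold change -0.75), and Nr3c2, the mineralocorticoid receptor (24.5 to 15.9 FPKM, -0.64). Among the higher were St14, the membrane protease matriptase (113.7 to 160.8 FPKM, 0.50), and Fxyd3, a modulator of the sodium-potassium pump (65.9 to 94.1 FPKM, 0.48). In Il12b-labelled against NEMOIEC-KO libraries 3 were higher, among them Tsc22d3 (0.75) and Hsd11b2 (0.59), which shields the mineralocorticoid receptor from glucocorticoids, and 1 lower, St14 (-0.44). Of all genes, 14% were higher and 5.94% lower there. By limma 0 of the 17 passed in Il12a-labelled or Il23a-labelled against NEMOIEC-KO libraries (6 and 1 at an unadjusted p below 0.05).

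Among all genes, 20.3% were lower and 11.9% higher in NEMOIEC-KO than in Nemofl/fl. Against NEMOIEC-KO, 14% were higher and 5.94% lower in Il12b-labelled libraries. In Il12a-labelled libraries 9.61% were called in all and 4% as lower. Of the other aquaporins, 5 of 10 passed the filter on low values, and 3 of these were lower in NEMOIEC-KO than in Nemofl/fl. Aqp11 fell from 9.68 to 4.54 FPKM (log2 fold change -1.03) and Aqp1, the channel of endothelium and red cells, from 43.5 to 22.5 FPKM (-0.89). In Il12b-labelled against NEMOIEC-KO libraries 3 were higher, Aqp11 and Aqp1 (both 0.79) among them, and in Il12a-labelled 2, with Aqp11 at 0.48. The gene not named in these counts averaged 0.206 FPKM in Nemofl/fl and 0.00986 FPKM in NEMOIEC-KO. Its mean was 0.192 FPKM in Il12b-labelled and 0.150 FPKM in Il12a-labelled libraries. It passed the filter of 0.2 FPKM only through genotypes other than NEMOIEC-KO, so its calls are in part set by that filter. Of 10 other carbonic anhydrases tested, 3 were lower in NEMOIEC-KO, among them Car11 (-1.24) and Car14 (9.92 to 4.09 FPKM), and 2 higher, Car8 (0.88) and Car13 (0.46). Against NEMOIEC-KO, 2 were higher in Il12b-labelled libraries, Car11 (1.28) and Car14 (0.74), and 1 lower, Car8 (-0.76), and in Il12a-labelled libraries 1 was lower, Car13 (-0.59).

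Of 9 anion and potassium channels of secretion, 2 were lower in NEMOIEC-KO than in Nemofl/fl and none higher. Among all genes, 20.3% were lower and 11.9% higher there, so the count of lower channels is near that share. Kcnq1, a basolateral potassium channel that sustains chloride secretion, fell from 27.2 ± 2.39 to 11.0 ± 1.74 FPKM (SD, n = 5, log2 fold change -1.28) and Kcnk5 from 33.2 to 20.4 FPKM (-0.71). In Il12b-labelled against NEMOIEC-KO libraries 3 were higher, Kcnq1 (1.16) and Kcnk5 (0.67) among them, and in Il12a-labelled libraries 2, Kcnq1 (0.81) and Kcnn4 (0.39). Of all genes, 14% were higher in the former, and 9.61% were called in either direction in the latter. Of 13 exchangers and cotransporters tested, 6 were lower and 2 higher in NEMOIEC-KO. Slc26a3 fell from 550.9 to 131.8 FPKM (log2 fold change -2.13) and Slc26a2, a sulfate transporter, from 145.9 to 44.3 FPKM (-1.75). Among the higher was Pdzk1, a scaffold protein (0.0692 to 0.271 FPKM, 0.40). Its level lay near the filter of 0.2 FPKM, and its mean in Nemofl/fl lay below it, so the call may in part be set by that filter. In Il12b-labelled libraries 1 of 13 was higher than in NEMOIEC-KO, the anion exchanger Slc4a2 (0.49). In Il12a-labelled against NEMOIEC-KO libraries limma called 0 of 13 exchangers (4 at an unadjusted p below 0.05). In Il23a-labelled against NEMOIEC-KO libraries it called 0 genes of any of these lists. At an unadjusted p below 0.05 there were 1 aquaporins, 0 carbonic anhydrases, 2 channels and 0 exchangers.

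The RNA of markers of several cell types also differed between genotypes. In bulk tissue, fewer cells of a type and less RNA per cell cannot be told apart. In NEMOIEC-KO against Nemofl/fl, 20.3% of all genes were called as lower and 11.9% as higher. Of 12 smooth muscle markers, 9 were lower in NEMOIEC-KO than in Nemofl/fl. Their summed level ranged from 4136 to 14281 FPKM in Nemofl/fl, from 2199 to 6647 in NEMOIEC-KO, from 2605 to 11668 in Il12b-labelled, from 3061 to 14658 in Il12a-labelled and from 2479 to 7770.1 in Il23a-labelled libraries. Of 12 general epithelial markers 7 were higher and 0 lower in NEMOIEC-KO, with sums from 12054 to 13134 FPKM in Nemofl/fl and from 14783 to 16684 in NEMOIEC-KO. Of 5 markers of posterior colon identity 3 were lower, among them Hoxb13 (274.6 to 211 FPKM, log2 fold change -0.39). Of 8 leukocyte markers 5 were higher, with sums of 134.3 to 184.7 FPKM in Nemofl/fl and 188.6 to 463.7 in NEMOIEC-KO. Of the other marker lists, 2 of 8 for endothelium, 2 of 8 for enteric neurons and glia and 1 of 6 for erythrocytes were lower. For goblet cells 1 of 7 was higher. The counts of these other lists lay near the shares over all genes. Compared with NEMOIEC-KO, 6 of 12 epithelial markers were lower and 1 higher in Il12b-labelled libraries, and 2 of 8 leukocyte markers were lower. Of all genes, 5.94% were lower and 14% higher there. In the same comparison 3 of 6 erythrocyte, 2 of 8 endothelial and 2 of 5 posterior colon identity markers were higher. In Il12a-labelled libraries 4 of 12 epithelial and 1 of 8 leukocyte markers were lower, and 1 of 5 posterior colon identity markers was higher. Of all genes, 4% were lower there and 9.61% were called in all. Against NEMOIEC-KO, limma called 0 of 12 smooth muscle markers in Il12b- and in Il12a-labelled libraries (1 and 10 at an unadjusted p below 0.05). In Il23a-labelled against Nemofl/fl libraries 11 of 12 smooth muscle markers were lower and 7 of 12 epithelial markers higher. Of all genes, 17% were lower and 12.6% higher in that comparison. The 37 mitochondrially encoded genes held 6.92% to 13.3% of a Nemofl/fl library's FPKM and 2.97% to 11.0% of that of a NEMOIEC-KO library. Their share was 2.65% to 8.71% in Il12b-labelled, 3.35% to 7.18% in Il12a-labelled and 2.84% to 8.52% in Il23a-labelled libraries, and its part in the results was not tested.

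Within genotypes, the mean log2 level of the smooth muscle markers correlated with Car1 (r = 0.78), Car4 (0.69), Car2 (0.63), Scnn1a (0.60) and Aqp8 (0.59) and inversely with Aqp4 (-0.77). That of the leukocyte markers ran against Aqp8 (-0.76), Scnn1a (-0.73) and Car4 (-0.72). These are descriptions over 25 libraries. With the smooth muscle score as a covariate, 0 of the 10 genes were called in NEMOIEC-KO against Nemofl/fl (2189 of all genes in place of 6202). Car2 was then at a log2 fold change of -1.07 (limma adjusted p = 0.0611), Aqp8 at -0.96 (0.411), Car1 at -0.62 (0.292), Cftr at -0.59 (0.0569), Aqp4 at 0.35 (0.528) and Scnn1a at -0.21 (0.532). With the epithelial score as a covariate 1 was called, Cftr (-0.80, adjusted p = 0.0133), beside Car2 at -1.47 (0.0687). The markers behind both scores themselves differed from Nemofl/fl in NEMOIEC-KO and in Il23a-labelled libraries, as given above. Fits with these scores thus cannot separate tissue composition from genotype there. The part of tissue composition in the results was not tested. Red cells also hold Car1 and Car2. The erythrocyte markers, the globin genes included, summed to between 26.3 and 67.8 FPKM in Nemofl/fl and between 21.2 and 82.6 in NEMOIEC-KO libraries. The sums were 45.4 to 78.5 FPKM in Il12b-labelled, 29.7 to 79.3 in Il12a-labelled and 15.5 to 26.6 in Il23a-labelled libraries, where 5 of 6 markers were lower than in Nemofl/fl. Of these markers Slc4a1 averaged below 0.2 FPKM in every genotype, and the part of red cells in the Car1 and Car2 results was not tested.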

How the data were processed

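Total RNA of distal colon from 25 mice was sequenced as poly-A stranded libraries, per the labels' protocols. The authors deposited 1 table of FPKM values per gene and library. TopHat2 2.0.10, Cufflinks 2.1.1, DESeq2 1.10.1 and the build GRCm38 are named per the submitters' processing notes, with no role given, and which made the FPKM is not given in the sources used here. FPKM carries no absolute depth, so no counting interval is given.

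Symbols and positions were matched for 49109 of 49452 identifiers. The 19266 genes that reached 0.2 FPKM in 5 or more libraries were tested as log2(FPKM + 0.5), which understates changes of low genes, in 1 limma 3.58.1 model over 5 genotypes (R 4.3.3, trend, 20 residual degrees of freedom), with Benjamini-Hochberg adjustment over all genes and a threshold of 0.05. The script was tested on simulated data. The p-values measure the spread between the mice.

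The 10 genes and all lists were chosen with earlier results of these data known. From each list the text names at most the 2 largest changes past the threshold in each direction. The genes most alike are the 3 with the highest within-genotype correlation and a mean of at least 1 FPKM, without predicted genes and antigen receptor segments. Some genes that these rules select are not reported here. Alternatives covered the pseudocount, the filter, scaling, replicate block, library code, tissue scores, sex, the groups fitted and each library left out.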

Additional observations from a re-analysis of the deposited data

Results flagged for a closer look

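In each genotype the highest and lowest of 5 libraries was compared with its nearest neighbour for each of the 10 genes. A library is listed where that gap, as a share of the group's range, exceeded Dixon's 95% critical value of 0.71. This held in 9 of 50 groups, and 6 of the 9 lay in the 2 libraries that stood apart over all genes. Chance gives about 1 in 20 for independent groups of normal values. These groups share libraries and correlated genes and were compared on untransformed FPKM, so the 9 cannot be set against that rate. For Scnn1a in Il12b-labelled replicate 2 the gap was at the limit after rounding (0.71).

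In Il12b-labelled replicate 2 the values were low for Scnn1a (41.2 FPKM, nearest 80.7), Scnn1b (5.16 FPKM, nearest 11.0), Car2 (156 FPKM, nearest 602) and Car4 (78.7 FPKM, nearest 878). In Il12a-labelled replicate 1 Car2 was low (141 FPKM, nearest 388) and Atp12a high (318 FPKM, nearest 155). In Nemofl/fl replicate 1 Atp12a (363 FPKM, nearest 183) and Car2 (978 FPKM, nearest 559) were high. In NEMOIEC-KO replicate 2 Scnn1b was high (25.4 FPKM, nearest 14.1).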

How the results depend on the processing

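Among 440 fits of a gene that left out 1 library, 359 kept direction and call, 59 lost the call, 6 gained it and 16 changed sign. Among 612 other alternatives these numbers were 521, 57, 13 and 21. No sign change concerned a called result, and the lowest adjusted p among them was 0.826.

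Of the 10 genes, the number called in NEMOIEC-KO against Nemofl/fl was 3 with no filter, 2 with library code as a covariate, 0 with the smooth muscle score and 1 with the epithelial score, in place of 6. Among these alternatives, the count over all genes is given only for the smooth muscle score, above. The losses are therefore not read as particular to the 10 genes. In Il12b-labelled against NEMOIEC-KO the number called was 2 with code as a covariate and 1 within a code, in place of 4. In Il12a-labelled against NEMOIEC-KO it was 0 with no filter, code as a covariate, within a code, with the smooth muscle score or with only the 2 groups fitted, 2 with the 1 FPKM filter, median-of-ratios scaling, the epithelial score or sex, and 7 without the libraries apart, in place of 1. In Il12a-labelled against Nemofl/fl it was 0 with no filter, median-of-ratios scaling, code, epithelial score or sex. In Il23a-labelled against Nemofl/fl it was 1 with no filter and 0 with code, either score or sex. Code and genotype cannot be told apart in either of these comparisons with Nemofl/fl. In Il23a-labelled against Il12b-labelled the number called was 1 with code and 2 without the libraries apart, and against Il12a-labelled 3 without them. The cause was not tested. Leaving out 1 library gave 2 to 5, 2 to 5, 0 to 4 and 0 to 0 calls in the 4 main comparisons. It gave 0 to 0, 0 to 1 and 0 to 3 for Il12b-, Il12a- and Il23a-labelled against Nemofl/fl, 0 to 0 between Il12a- and Il12b-labelled, and 0 to 2 and 0 to 1 for Il23a-labelled against these.

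Log2 fold changes that changed sign were Scnn1b 0.10 (epithelial score) and Scnn1g -0.061 (code, and within a code) in NEMOIEC-KO, and Car4 -0.18 in Il12b-labelled (smooth muscle score). In Il12a-labelled with the smooth muscle score they were Scnn1a -0.041, Aqp4 0.20 and Car1 -0.020. In Il23a-labelled with code, and within a code, they were Scnn1a -0.074, Scnn1b -0.16, Aqp8 -0.21 and Car4 -0.15. Aqp4 in Il23a-labelled was -0.00114 with a pseudocount of 0.1, -0.036 with median-of-ratios scaling, -0.048 with quantile normalization, -0.13 and -0.14 with the smooth muscle and epithelial scores and -0.45 with sex. Leaving out 1 library gave -0.0078 to 1.37 for Car4 in Il12b-labelled and, in Il23a-labelled, -0.012 to 0.29 for Scnn1a, -0.095 to 0.24 for Scnn1b, -0.18 to 0.29 for Aqp4, -0.36 to 1.02 for Aqp8, -0.0019 to 0.67 for Car1 and -0.15 to 0.87 for Car4.

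Over all genes, calls in Il12b-labelled against NEMOIEC-KO went from 3833 to 1420 with code, 719 within a code and 2505 with the smooth muscle score. In Il12a-labelled they went from 1851 to 177, 31 and 162, and to 364 with only the 2 groups. In Il23a-labelled they went from 16 to 6, 3 and 118, to 8 with the replicate block, 4 with sex, 7 with only the 2 groups and 163 without the libraries apart.

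The replicate numbers did not pair the mice: the median correlation of deviations was 0.00710 over 50 same-numbered pairs and 0.0086 over 200 others. With the replicate block 5, 4, 1 and 0 of the 10 genes were called in the 4 main comparisons.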
